A study of Homo sapiens with 30 samples.

Results

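This account covers the genes of cholesterol and fatty acid synthesis in human carcinoma cells kept without oxygen. The list held 34 genes: 5 regulators, 19 genes of the sterol branch and 10 of the fatty acid branch. Each was looked for among probe sets that carry a single gene symbol, under its current symbol or an older alias, and where a gene had several the brightest was used. A probe set was found for 27 of the 34 genes (4 regulators, 14 sterol, 9 fatty acid), out of 12690 genes measured in all. The 7 listed genes not analysed here for want of such a probe set were INSIG2, ACAT2, FDPS, FDFT1, TM7SF2, HSD17B7 and ELOVL5. The upper 60% of genes by mean level were tested, 7614 in all, and they included 21 of the list (4 regulators, 10 sterol, 7 fatty acid).

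RNA was hybridised to Affymetrix arrays, 1 sample per array and 30 arrays in all, from monolayer cultures placed in an anoxic incubator. RCC4, a renal carcinoma line, was studied as VHL-null cells and as cells given wild-type VHL back (VHL-restored), before hypoxia (0 h), after 1, 2, 4, 6 and 18 h of it, and when air had been let back for 1 h or 4 h at the end of the 18 h. H1299, a non-small cell lung cancer line, was studied as p53-null cells and as cells with p53 reintroduced (p53 wild type) at 0 h and 24 h, and HCT116, a colon carcinoma line, at 0, 12 and 24 h in both p53 genotypes. Independent replicates, 2 per genotype, exist for RCC4 before hypoxia and after 18 h, and every other group is 1 array. The labels do not say whether a genotype was 1 clone or a pool, nor what drives the reintroduced gene. The comparisons address how hypoxia changes expression and how VHL and p53 genotype alter that.

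Values are the authors' linear intensities, whose scaling and null entries the labels do not explain. Below, a level is an intensity and a difference is on the log2(intensity + 16) scale after each array was centred on its median over genes, with null taken as 0. In 18 arrays (set 1) 5 control entries are blank, and in the other 12 (set 2) they are filled. Set 1 took all arrays of H1299 and HCT116, the RCC4 arrays after 2 h and 6 h, and RCC4 replicate 1 before hypoxia and after 18 h, and set 2 the rest of RCC4. Medians of the listed intensities lay between 145 and 174 on set 1 arrays and between 201 and 222 on set 2 arrays, so intensities are compared below within a set. The VHL-null array of replicate 2 at 0 h stood apart with 18.4% null probe sets, the fewest. The VHL-restored array after 4 h of reoxygenation had the most, at 40.4%. On set 1 arrays PAX8, a renal lineage factor, was at 273 to 366 in RCC4, against 105 to 136 in H1299 and 126 to 155 in HCT116. The colon factor CDX2 was at 147 to 252 in HCT116, against 173 to 208 in RCC4, and the lung factor NKX2-1 was at 43 to 58 in H1299, against 46 to 66 in RCC4, so these markers did not set either line apart. The VHL signal was dim, at 14 to 20 on VHL-null and 1 to 26 on VHL-restored arrays of set 1, and at 42 to 109 on VHL-null and at most 40 on VHL-restored arrays of set 2, and the part of the gene it reads is not given, so it checks no label. At 0 h the hypoxia-induced genes ADM, BNIP3 and ENO2 were higher in VHL-null than in VHL-restored cells by 2.21, 2.24 and 1.73 (limma adjusted p = 0.0159, 0.0438 and 0.0424), and NDRG1 was at 1.49 (0.148).

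As background, cells sense cholesterol in the membrane of the endoplasmic reticulum. When sterols are low, SCAP escorts the SREBP transcription factors (made from SREBF1 and SREBF2) to the Golgi, where they are cut free to enter the nucleus, while INSIG1 holds the SCAP and SREBP complex back when sterols are plentiful and is itself an SREBP target. SREBP-2 mainly drives the sterol branch and SREBP-1c the fatty acid branch. Both branches draw on acetyl-CoA, the late steps of cholesterol synthesis and the fatty acid desaturases use molecular oxygen, and loss of VHL stabilises the hypoxia-inducible factors in oxygenated cells.

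The promoters of 4 members are shown because these genes carry the results below (SCD, EBP, INSIG1) or hold the sterol response element searched for (SREBF2). Each line gives the 250 bases before the RefSeq start site, 5′ to 3′ on the plus strand, on which all 4 genes lie, in build GRCh38.p14. Capitals mark matches on either strand to TCACNCCAC (a form of the sterol response element), CCAAT (the NF-Y box) and ACGTG (the core bound by hypoxia-inducible factors); a capital run can join 2 overlapping matches.
SCD, chr10:100346983-100347232: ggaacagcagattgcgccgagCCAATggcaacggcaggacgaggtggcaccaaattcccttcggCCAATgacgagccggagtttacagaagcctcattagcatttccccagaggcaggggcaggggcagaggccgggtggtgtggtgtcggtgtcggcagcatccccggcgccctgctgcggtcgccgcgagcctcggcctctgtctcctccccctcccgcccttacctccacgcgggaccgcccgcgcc
EBP, chrX:48521558-48521807: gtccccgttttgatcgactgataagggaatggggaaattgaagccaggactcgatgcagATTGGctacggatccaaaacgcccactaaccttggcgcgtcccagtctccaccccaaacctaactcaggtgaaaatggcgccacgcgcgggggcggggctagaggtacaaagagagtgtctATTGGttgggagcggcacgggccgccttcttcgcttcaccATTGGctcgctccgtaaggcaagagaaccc
INSIG1, chr7:155297628-155297877: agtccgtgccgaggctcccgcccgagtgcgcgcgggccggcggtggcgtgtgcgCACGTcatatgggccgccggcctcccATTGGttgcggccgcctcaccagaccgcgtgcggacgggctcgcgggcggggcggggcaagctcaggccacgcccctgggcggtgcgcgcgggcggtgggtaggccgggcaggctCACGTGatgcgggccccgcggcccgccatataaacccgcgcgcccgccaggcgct
SREBF2, chr22:41832855-41833104: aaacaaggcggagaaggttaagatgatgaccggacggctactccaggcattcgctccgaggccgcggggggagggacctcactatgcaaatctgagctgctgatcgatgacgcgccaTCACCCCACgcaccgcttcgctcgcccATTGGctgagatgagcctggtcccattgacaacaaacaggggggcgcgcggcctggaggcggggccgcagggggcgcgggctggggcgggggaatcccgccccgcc
SCD held 2 CCAAT matches and EBP 3, while INSIG1 held 1 CCAAT match and 3 of ACGTG, 2 of which overlap on opposite strands. Over windows of 250 bases before to 50 after the start, CCAAT was found in 19 of the 30 list genes with a RefSeq promoter (63.33%), against 34.61% of all 35116 promoters. TCACNCCAC was found in 1 of the 30 (SREBF2), against 1.128% of all promoters. For ACGTG the shares were 26.67% of the list and 21.41% of all promoters, and for GGGCGG, the GC box, 90% and 44.95%. A match is a run of letters only, and the list was not compared with promoters of like base composition.

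More of these genes passed the test for VHL genotype than for any other comparison made here. That comparison set 10 arrays against 10, more per side than any other, so the counts do not rank genotype above hypoxia or p53. Over the 20 RCC4 arrays, fitted with terms for genotype, state and array set, 14 of the 21 tested members passed limma's test at an adjusted p of 0.05, 12 higher and 2 lower in VHL-null than in VHL-restored cells. Of all 7614 genes, 34.2% passed in this comparison, 12.5% higher and 21.6% lower. The median difference was 0.23 in the sterol branch and 0.29 in the fatty acid branch, against -0.05 over all genes. All of the 6 sterol genes that passed were higher (HMGCS1, IDI1, SQLE, NSDHL, EBP and DHCR7), as were 4 of the 5 fatty acid genes that passed (FASN, SCD, FADS1 and FADS2, with ACSS2 lower). Without the VHL-null array of replicate 2 at 0 h, 13 members passed. Leaving out each replicate in turn gave 2158 to 3303 of all 7614 genes.

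The 10 VHL-null arrays can each be matched to the VHL-restored array of the same state and set. IDI1, SQLE, NSDHL, EBP, SCD and FADS1 were higher in VHL-null cells in all 10 pairs, and 5.86% of all genes were higher in every pair. SREBF1 and ACSS2 were lower in all 10 pairs, as were 8.02% of all genes. Their lowest values (-0.36 and -0.48) came from the pair after 4 h of reoxygenation, whose VHL-restored array had the most null probe sets. For EBP and FADS1 every VHL-null array lay above every VHL-restored array, a separation seen in 0.63% of all genes. The other members that passed were mixed in at least 1 pair: INSIG1, HMGCS1, DHCR7 and FADS2 were higher in 9 pairs, FASN in 8 and SREBF2 in 7.

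**Figure D1:**
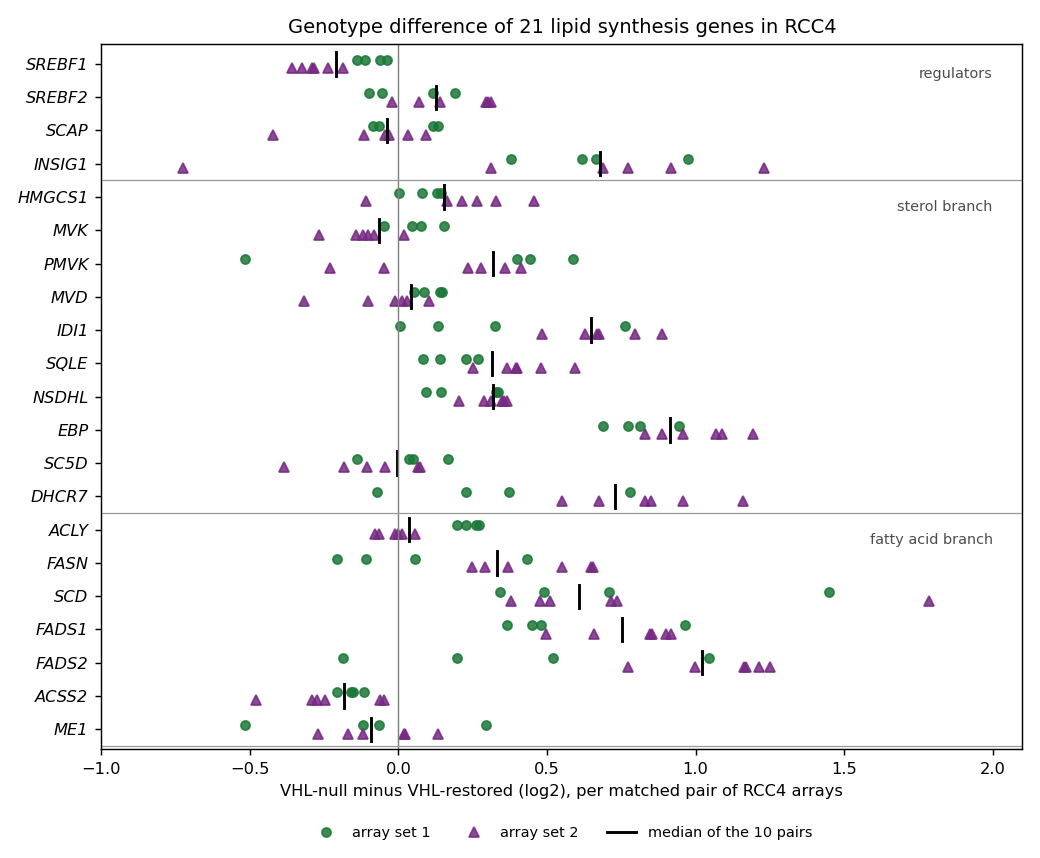
Difference in log2 level between VHL-null and VHL-restored RCC4 cells (horizontal axis) for the 21 tested genes, ordered by regulators, sterol branch and fatty acid branch. Each point is 1 of 10 matched pairs of arrays, circles for set 1 and triangles for set 2, and the bar is the median of the 10. EBP lies between 0.69 and 1.19 in every pair, while SREBF1 lies below 0 in every pair.

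Among the regulators, SREBF1 and SREBF2 differed little in size and in opposite directions. SREBF1 stood at 712, 699, 679 and 660 on the set 1 VHL-null arrays of 0, 2, 6 and 18 h, against 760, 744, 724 and 720 on the VHL-restored ones. On the 6 pairs of set 2 it stood at 748, 854.5 and 920 (lowest, median and highest) in VHL-null cells, against 827, 957.5 and 1036 in VHL-restored cells. The ranges did not overlap in set 1 and overlapped in set 2, and the difference was -0.20 (SE 0.044, limma adjusted p = 0.00241). SREBF2 was at 358, 312, 306 and 394 in VHL-null cells of set 1 at those times, against 342, 342, 313 and 339 in VHL-restored cells, and at 453, 505 and 537 in VHL-null cells of set 2, against 385, 390.5 and 453 in VHL-restored cells. Its ranges overlapped in set 1 and touched in set 2, with a difference of 0.12 (SE 0.047) that lay at the threshold (limma adjusted p = 0.0499, and up to 0.246 under the alternatives run). A second SREBF2 probe set gave 0.19 and was higher in 6 of 10 pairs. SCAP had no consistent side, with 4 of 10 pairs higher in VHL-null cells and a median difference of -0.04.

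INSIG1, which retains SREBP in the endoplasmic reticulum, was the regulator with the largest difference. It measured 370, 304, 315 and 344 on VHL-null arrays of set 1 at 0, 2, 6 and 18 h, against 245, 235, 150 and 208 on VHL-restored arrays, with no overlap. In set 2 it measured 354, 705 and 909 in VHL-null cells, against 296, 410 and 573 in VHL-restored cells. The overlap came from 4 h of hypoxia, where the VHL-null array was at 354 and the VHL-restored array at 573, a difference of -0.73 that ran opposite to the other 9 pairs. Over all states INSIG1 differed by 0.58 (SE 0.134, limma adjusted p = 0.00339).

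Of the early sterol genes, which carry acetyl-CoA to isoprenoid units, HMGCS1 and IDI1 passed. HMGCS1, the synthase at the entry to the mevalonate pathway, measured 466, 402, 422 and 410 on VHL-null arrays of set 1 at 0, 2, 6 and 18 h, against 441, 409, 392 and 365 on VHL-restored arrays. In set 2 it measured 421, 570 and 660 in VHL-null cells, against 384, 440.5 and 473 in VHL-restored cells. The ranges overlapped in both sets and the difference was 0.17 (SE 0.052, limma adjusted p = 0.0211). At 2 h the VHL-null intensity (402) was below the VHL-restored one (409), and that pair counts as higher only after centring, by 0.0032. Without the array set term HMGCS1 did not pass (limma adjusted p = 0.134). Other HMGCS1 probe sets gave 0.10 and, for one that was null on 7 arrays, 1.19, while the remaining 2 were null on all 30 arrays. The kinases MVK and PMVK and the decarboxylase MVD did not pass, and their 10 pairs ranged over -0.27 to 0.15, -0.51 to 0.59 and -0.32 to 0.15. The lowest MVK and MVD values came from the pair after 4 h of reoxygenation, whose VHL-restored array had the most null probe sets.

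IDI1, the isomerase that makes the second isoprenoid building block, showed a difference of unequal size in the 2 array sets, which was not tested. It averaged 0.31 over the 4 pairs of set 1 and 0.69 over the 6 pairs of set 2, and 0.54 in the fit (SE 0.081, limma adjusted p = 1.04e-04). In set 2 the VHL-null arrays were at 820, 867.5 and 957, against 400, 500 and 559 for VHL-restored arrays, without overlap. In set 1 they were at 278, 311 and 343, against 193, 241 and 343. At 0 h of replicate 1 the difference was 0.0047, so 1 of the 10 pairs was higher by almost nothing.

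SQLE, squalene epoxidase, makes the first oxygen-dependent step of sterol synthesis. It measured 386, 361, 350 and 378 on VHL-null arrays of set 1 at 0, 2, 6 and 18 h, against 340, 347, 311 and 307 on VHL-restored arrays. In set 2 it measured 627, 759 and 864 in VHL-null cells, against 449, 535 and 546 in VHL-restored cells. The ranges did not overlap in either set, and the difference was 0.32 (SE 0.048, limma adjusted p = 9.04e-05). A second, dimmer SQLE probe set gave 0.92 and was also higher in all 10 pairs, so the 2 probe sets agree in direction and differ in size.

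Of the genes after lanosterol, EBP, the sterol isomerase, had the smallest adjusted p of the list. It measured 583, 645.5 and 689 on VHL-null arrays of set 1, against 346, 366 and 371 on VHL-restored arrays, and 837, 1024.5 and 1137 on VHL-null arrays of set 2, against 407, 469.5 and 500 on VHL-restored arrays. The difference was 0.92 (SE 0.049, limma adjusted p = 1.95e-09), a fold of 1.90 on the log2(intensity + 16) scale. NSDHL, which removes the C4 carboxyl group, differed by 0.28 (SE 0.038, limma adjusted p = 4.21e-05), with VHL-null arrays at 239 to 280 in set 1, against 200 to 232 in VHL-restored cells. DHCR7, the last reductase before cholesterol, differed by 0.63 (SE 0.093, limma adjusted p = 7.94e-05), and its pairs averaged 0.33 in set 1 and 0.84 in set 2. At 2 h the DHCR7 pair ran the other way, at 299 in VHL-null and 321 in VHL-restored cells. SC5D, the desaturase between EBP and DHCR7, did not pass: 5 of 10 pairs were higher, and its pairs ranged from -0.38 to 0.17. Its lowest value also came from the pair after 4 h of reoxygenation.

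In the fatty acid branch the desaturases had the largest differences. SCD, which puts the first double bond into saturated fatty acyl-CoA, differed by 0.76 (SE 0.118, limma adjusted p = 1.35e-04). FADS1 and FADS2, the desaturases of polyunsaturated fatty acids, differed by 0.69 (SE 0.063, limma adjusted p = 6.36e-07) and 0.81 (SE 0.121, limma adjusted p = 8.52e-05). FADS1 was at 280, 302 and 332 on VHL-null arrays of set 1, against 160, 215 and 222 on VHL-restored arrays, and at 510, 544 and 573 on VHL-null arrays of set 2, against 269, 279 and 318 on VHL-restored arrays, so neither set overlapped. FADS2 did not overlap in set 2, at 357, 439.5 and 549 in VHL-null cells, against 154, 178.5 and 217 in VHL-restored cells. In set 1 it overlapped, at 264, 306 and 381 in VHL-null cells, against 174, 239 and 309 in VHL-restored cells, and the array at 2 h (309) was the only VHL-restored one above the lowest VHL-null array. Its pairs averaged 0.39 in set 1 and 1.09 in set 2.

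Of the enzymes that supply and make palmitate, FASN and ACSS2 passed, in opposite directions. FASN, fatty acid synthase, measured 259, 235, 268 and 330 on VHL-null arrays of set 1 at 0, 2, 6 and 18 h, against 292, 279, 253 and 237 on VHL-restored arrays, which overlap. In set 2 it measured 325, 360.5 and 476 in VHL-null cells, against 208, 243.5 and 353 in VHL-restored cells. FASN therefore differed by 0.04 on average in set 1 and 0.46 in set 2, and by 0.29 in the fit (SE 0.079, limma adjusted p = 0.00957). ACLY, which supplies acetyl-CoA from citrate, and ME1, which supplies NADPH, did not pass, with median pair differences of 0.03 and -0.09. ACSS2, which makes acetyl-CoA from acetate, was lower in VHL-null cells, with a difference of -0.20 (SE 0.042, limma adjusted p = 0.00153), at 333 to 349 in set 1, against 369 to 395 in VHL-restored cells, without overlap. In set 2 ACSS2 was at 406 to 469, against 458 to 512 in VHL-restored cells, which overlap.

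The genes around these branches were counted from lists of the same pathways, in the same fit over the 20 RCC4 arrays, where 12.5% of all genes were higher and 21.6% lower. Of 8 tested genes of cholesterol handling, 4 were lower in VHL-null cells and none higher. The differences were -0.45 for ABCA1, the cholesterol exporter (limma adjusted p = 0.00124), -0.31 for SOAT1, which esterifies cholesterol (1.11e-04), -0.17 for SCARB1, the lipoprotein receptor (0.0103), and -0.15 for NPC1, the lysosomal exporter (0.0273). Of 4 tested genes of SREBP processing and sterol-dependent degradation, 2 were higher: ERLIN1 by 0.42 (limma adjusted p = 3.36e-06) and MBTPS2, the second SREBP protease, by 0.32 (1.37e-04). Of 9 other fatty acid genes 3 were higher (ELOVL1, HACD2, ACSL5) and 2 lower (LPIN2, AGPAT2), with LPIN2, a phosphatidate phosphatase, at -0.72 (limma adjusted p = 1.53e-07). Of 4 tested fatty acid oxidation genes 3 were lower and none higher, among them ACADVL, a mitochondrial dehydrogenase, at -0.30 (limma adjusted p = 0.00442). Of 5 genes of the mevalonate side branches 3 were lower (GGPS1, FNTA and PGGT1B) and none higher.

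At 0 h alone, with oxygen present, SCD had the largest genotype difference of the list. It measured 394 and 576 in VHL-null cells, against 140 and 137 in VHL-restored cells, with replicates 1 and 2 in that order. The groups did not overlap, and the difference was 1.62 (SE 0.282), a fold of 3.07, at a limma adjusted p of 0.148. No member passed in that fit, and 0.118% of all genes did. With the replicate number as a block, 7 members passed, all higher, as did 7.51% of all genes (3.1% higher): SCD (limma adjusted p = 9.15e-08), EBP (9.70e-05), INSIG1 (2.74e-04), FADS2 (3.95e-04), FADS1 (0.0018), DHCR7 (0.00654) and SQLE (0.0435). Their differences were 1.62, 0.79, 0.92, 0.76, 0.57, 0.46 and 0.35. In the fit without the block, SQLE differed by 0.16 without the VHL-null array of replicate 2, the one that stood apart. It differed by 0.55 without that of replicate 1, and FADS2 by 0.50 without the VHL-restored array of replicate 2. At 0 h and 18 h the replicate number is also the array set, so each of these values sets 1 array set against both. Within replicates 1 and 2 the differences were 0.23 and 0.48 for SQLE and 0.52 and 1.00 for FADS2.

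At 18 h of hypoxia the SCD gap was smaller than at 0 h. SCD measured 442 and 556 in VHL-null cells, against 341 and 301 in VHL-restored cells, a difference of 0.54. EBP measured 689 and 1137 in VHL-null cells, against 346 and 484 in VHL-restored cells, a difference of 1.02. FADS2 measured 381 and 549 in VHL-null cells, against 174 and 203 in VHL-restored cells, a difference of 1.15. For these 3 genes both VHL-null arrays lay above both VHL-restored arrays. No member passed without the block, where 0.0263% of genes did, and 9 passed with it, all higher, where 7.59% of genes did (3.62% higher). Beyond those 3 (limma adjusted p with the block 0.00716, 7.61e-06 and 7.14e-06) they were FADS1 (0.91), DHCR7 (0.81), IDI1 (0.72), INSIG1 (0.68), FASN (0.54) and NSDHL (0.34), at limma adjusted p = 2.58e-05, 4.81e-05, 0.00399, 0.00432, 0.00593 and 0.0469 with the block. Single arrays moved 4 of these values by over 1.5 times in the fit without the block. Without the VHL-restored array of replicate 2, SCD differed by 0.20, IDI1 by 1.10 and FASN by 0.34. Without that of replicate 1, SCD differed by 0.88, IDI1 by 0.33 and INSIG1 by 0.41. Without the VHL-null array of replicate 2, IDI1 differed by 0.38 and INSIG1 by 0.40. Each of these values sets 1 array set against both, so it also holds the difference between array sets. Within replicates 1 and 2 the differences were 0.34 and 0.74 for SCD and 0.76 and 0.67 for IDI1. They were 0.43 and 0.65 for FASN and 0.67 and 0.69 for INSIG1.

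In each RCC4 genotype on its own, SCD in VHL-restored cells was the only member that passed for 18 h of hypoxia, and it passed only with the replicate block. In VHL-null cells no member passed with or without the block, and 0.486% and 0% of all genes did. The 4 members furthest from 0 by limma's statistic were PMVK (0.55), EBP (0.27), DHCR7 (0.25) and FADS2 (0.25), with unadjusted p of 0.0648, 0.138, 0.163 and 0.271. The PMVK change was 1.04 in replicate 1 and 0.06 in replicate 2, and leaving out the VHL-null 0 h array of replicate 1 or 2 gave 0.16 or 0.94. In VHL-restored cells SCD alone passed with the block, where 6.58% of genes did (3.7% higher), and no member passed without it, where 0.0394% did. SCD was at 341 and 301 at 18 h, against 140 and 137 at 0 h, and every 18 h array lay above every 0 h array. The difference was 1.17 (SE 0.282), with a limma adjusted p of 0.633 without and 5.48e-06 with the block. The median change of the fatty acid branch in VHL-restored cells was -0.14, against 0.05 over all genes, with 3 of its 7 genes above 0.

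The change of SCD with 18 h of hypoxia differed between the genotypes. It was 0.12 and 0.06 in VHL-null cells in replicates 1 and 2, against 1.23 and 1.11 in VHL-restored cells. The interaction was -1.08 (SE 0.398, limma adjusted p = 1.00) without the block and passed with it (SE 0.163, limma adjusted p = 0.00336). It was the only member of the 21 that passed with the block, where 0.565% of genes did (0.499% lower), and no gene passed without it, where 45 genes had an unadjusted p under 0.05. ADM, BNIP3, NDRG1 and ENO2 passed with the block in the same direction, at -2.20, -2.27, -1.45 and -1.84.

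The single arrays at other times gave SCD the same shape. In VHL-null cells SCD was at 394 and 576 at 0 h, 479 at 1 h, 473 at 2 h, 484 at 4 h, 428 at 6 h, 442 and 556 at 18 h, 544 after 1 h of reoxygenation and 566 after 4 h. In VHL-restored cells it was at 140 and 137 at 0 h, 330 at 1 h, 289 at 2 h, 354 at 4 h, 295 at 6 h, 341 and 301 at 18 h, and 292 and 344 after 1 h and 4 h of reoxygenation. All 8 later VHL-restored arrays lay above the 0 h array of their set, by 0.99 to 1.57 (median 1.20), while the 8 VHL-null arrays differed from theirs by -0.0049 to 0.26. SCD was thus already at 330 after 1 h in VHL-restored cells, and each time between 0 h and 18 h rests on 1 array per genotype.

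**Figure D2:**
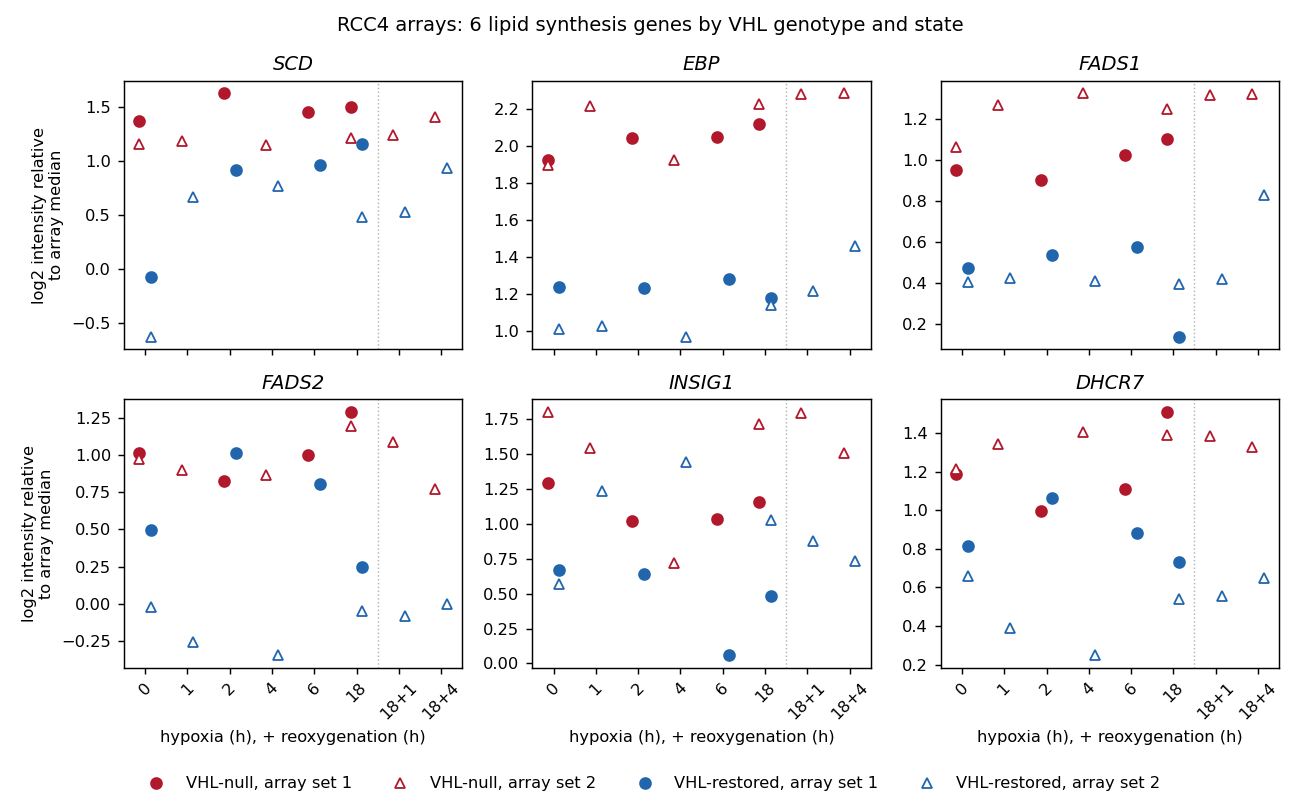
Log2 intensity relative to the array median (vertical axis) of 6 genes in RCC4 by hours of hypoxia and, right of the dotted line, of reoxygenation after 18 h. Red stands for VHL-null and blue for VHL-restored cells, filled circles for array set 1 and open triangles for set 2, and each point is 1 array. SCD in VHL-restored cells is lowest at 0 h, at intensities of 140 and 137, and EBP and FADS1 keep the genotypes apart in every state.

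FASN in VHL-restored cells moved opposite to SCD in sign. Its 8 later arrays all lay below the 0 h array of their set, by -0.59 to -0.04 (median -0.31), with 237 and 257 at 18 h, against 292 and 353 at 0 h. In VHL-null cells 3 of 8 lay above. The 18 h change of -0.31 in VHL-restored cells did not pass (unadjusted p = 0.154). INSIG1 in VHL-null cells was below its 0 h array on all 8 later arrays, by -1.08 to -0.0092, and above it on 5 of 8 in VHL-restored cells. The 0 h array of each set enters each of its differences, so these counts are not independent.

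Changes from 0 h averaged over both genotypes were tested at each state, all against the same 0 h arrays. No member passed at 1, 2, 4, 6 or 18 h of hypoxia or after 1 h of reoxygenation, where 3.61%, 0.144%, 10.6%, 0%, 2.96% and 0.368% of genes passed. SCD led the list or came next at each of them, with 0.69, 0.60, 0.72, 0.53, 0.63 and 0.65, and MVD led at 4 h of hypoxia with 0.29 (limma adjusted p = 0.0613). After 4 h of reoxygenation 3 members were higher than at 0 h on this average: SCD by 0.93 (SE 0.247, limma adjusted p = 0.028), EBP by 0.38 (SE 0.102, 0.0303) and MVD by 0.32 (SE 0.093, 0.0426). The genotypes contributed unequally, with SCD at 0.26 in VHL-null and 1.57 in VHL-restored cells, MVD at 0.14 and 0.56 and EBP at 0.39 and 0.45 in the same order. Of all genes 11% passed in that comparison, 6.99% higher, and the median over all genes was 0.10. The VHL-restored array after 4 h of reoxygenation had the most null probe sets (40.4%), and the VHL-null 0 h array of replicate 2 the fewest (18.4%). Against the latter array, SCD intensity in VHL-null cells was lower after 4 h of reoxygenation, although its centred difference was 0.26. How far centring entered these differences was not tested. With the replicate block SCD was at 0.50 (limma adjusted p = 0.0951) and MVD at -0.11 (0.328). No member passed without the VHL-restored array of replicate 2 at 0 h, where SCD was at 0.61, and 1 passed without the VHL-null one. Leaving out each replicate in turn gave 280 to 1194 of all 7614 genes in that comparison. Against 18 h of hypoxia, no member passed after 4 h of reoxygenation, where 2.63% of genes passed, with NSDHL (0.18), FADS1 (0.30), EBP (0.23) and SC5D (0.20) furthest from 0.

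In HCT116 cells INSIG1 was higher after 24 h of hypoxia, and SCD came near the threshold. INSIG1 was at 69, 227 and 222 in p53-null cells at 0, 12 and 24 h, and at 66, 113 and 154 in p53 wild-type cells. Both hypoxic arrays of each genotype lay above its 0 h array. With p53 genotype as the repeat, the 24 h change was 1.28 (SE 0.201, limma adjusted p = 0.0482) and the 12 h change 1.10 (SE 0.201, limma adjusted p = 0.123). With no filter on low values the 24 h change did not pass (limma adjusted p = 0.164). INSIG1 was the 1 member of 21 that passed at 24 h, where 3.81% of genes did, and no member passed at 12 h, where 0.735% did. P-values here measure repeatability over the 2 genotypes, since each group was a single array.

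SCD measured 165, 395 and 291 in p53-null HCT116 cells at 0, 12 and 24 h, and 159, 275 and 347 in p53 wild-type cells. All 4 hypoxic arrays lay above both 0 h arrays, with changes of 0.98 at 12 h (limma adjusted p = 0.131) and 0.92 at 24 h (0.0749), neither of which passed. IDI1 measured 261, 437 and 313 in p53-null cells and 236, 319 and 193 in p53 wild-type cells, so it was higher at 12 h in both and at 24 h in 1 of 2. DHCR7 was 0.47 (limma adjusted p = 0.0657) and PMVK, phosphomevalonate kinase, -0.59 (0.0681) at 24 h, with PMVK at 33 and 46 at 24 h, against 63 and 72 at 0 h, in p53-null and p53 wild-type cells in that order. Of the neighbouring pathways only NPC1 passed at 24 h, with a difference of -0.69. ADM, BNIP3, NDRG1 and ENO2 all passed at both times.

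In H1299 cells the p53 genotypes ran opposite ways for several members. INSIG1 was at 72 at 24 h, against 142 at 0 h, in p53-null cells, and at 116, against 84, in p53 wild-type cells. FASN was at 212 at 24 h, against 301 at 0 h, in p53-null cells, and at 326, against 188, in p53 wild-type cells. ACLY was at 226, against 299, in p53-null cells and at 303, against 242, in p53 wild-type cells, and DHCR7 at 91, against 113, and at 117, against 82. SCD went the other way, at 256, against 225, in p53-null cells and at 226, against 296, in p53 wild-type cells. With 1 array per group these differences in H1299 have no replicate check.

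SREBF1, SREBF2, HMGCS1 and SQLE passed no test in HCT116 or over H1299 and HCT116. SREBF1 was at 746 at 24 h, against 728 at 0 h, in p53-null H1299 cells and at 704, against 771, in p53 wild-type cells, and in HCT116 at 730, 820 and 692 at 0, 12 and 24 h in p53-null cells and 843, 820 and 674 in p53 wild-type cells. SREBF2 was at 309 to 325 in H1299 and 319 to 368 in HCT116. HMGCS1 was at 324 to 362 in H1299 and 309 to 365 in HCT116, and SQLE at 363 to 405 and 314 to 343.

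Over both lines, no member and no gene passed for 24 h hypoxia, for p53 genotype or for their interaction (limma, 0% of 7614 genes each; 427 genes had an unadjusted p under 0.05 for hypoxia). The interaction was furthest from 0 for ACLY at -0.50 (unadjusted p = 0.0177), FASN at -0.78 (0.0284), EBP at -0.24 (0.194) and SREBF1 at 0.19 (0.195). For hypoxia the leading members were PMVK (-0.33), DHCR7 (0.28), SCD (0.41) and SREBF1 (-0.11), and for p53-null minus p53 wild type PMVK (-0.21), IDI1 (0.28), FADS2 (-0.13) and MVK (0.10). In HCT116 alone no member passed for p53, where 0.0263% of genes did. FASN came closest there, at 271, 322 and 287 in p53-null cells at 0, 12 and 24 h, against 148, 196 and 199 in p53 wild-type cells, which do not overlap. Its difference was 0.66 (SE 0.085, limma adjusted p = 0.19), followed by IDI1 (0.41), DHCR7 (0.36) and FADS2 (-0.17).

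**Figure D3:**
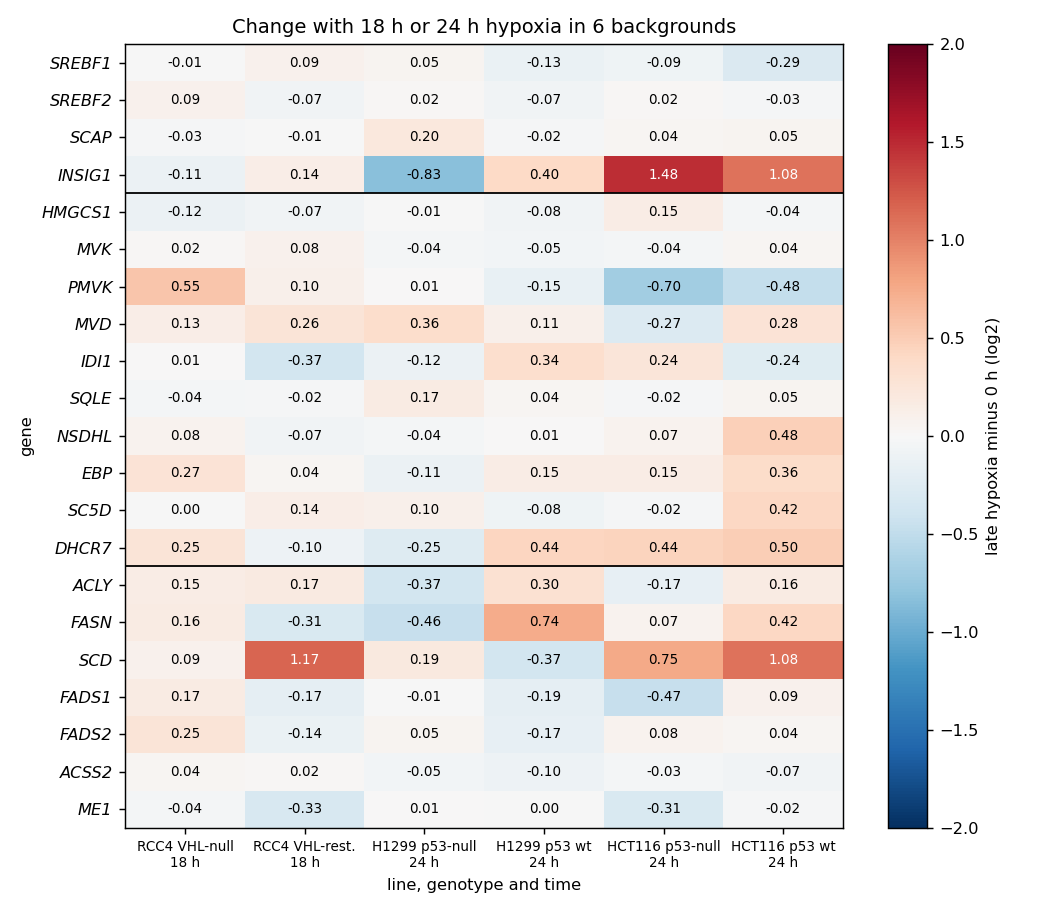
Log2 change of the 21 tested genes after 18 h (RCC4) or 24 h (H1299, HCT116) of hypoxia relative to 0 h, in 6 backgrounds, with the null genotype left of its partner. Red cells are higher and blue cells lower than at 0 h, and RCC4 columns are means of 2 replicates. SCD is at 1.17 in VHL-restored and 0.09 in VHL-null RCC4 cells, and INSIG1 at 1.48 and 1.08 in p53-null and p53 wild-type HCT116 cells.

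Late hypoxia was also compared across the 6 backgrounds, at 18 h in RCC4 and 24 h elsewhere, with each background as 1 value. Both genotypes of a line entered as separate values. They are not independent repeats, and the p-value for the common change does not allow for that. No gene passed for the common change, for RCC4 against the other lines or for HCT116 against H1299 (limma, 0% of 7614 genes each). SCD led the common change at 0.49 (unadjusted p = 0.0518), with 5 of 6 backgrounds above 0, followed by EBP (0.14), DHCR7 (0.21) and ME1 (-0.11). PMVK led the difference of RCC4 from the others at 0.65 (unadjusted p = 0.00755), ahead of INSIG1 (-0.52), SREBF1 (0.15) and ACSS2 (0.09). INSIG1 led the difference of HCT116 from H1299 at 1.496 (unadjusted p = 0.0126), ahead of PMVK (-0.52), SCD (1.01) and NSDHL (0.29).

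A few members, like many other genes, also differed in level between the lines on the arrays of set 1, hypoxic arrays included. DHCR7 stood at 250 to 446 on the 8 RCC4 arrays, against 82 to 117 in H1299 and 89 to 160 in HCT116. ACLY stood at 475 to 651 in RCC4, against 226 to 303 in H1299 and 208 to 277 in HCT116. ME1 stood at 146 to 245 in RCC4 and 70 to 103 in HCT116, and was null on all 4 H1299 arrays. For these 3 genes (14.3% of the 21) every RCC4 array lay above every array of the other lines after centring, as for 9.97% of all genes. After centring SREBF1 (4.76%) lay below throughout, as did 24.8% of all genes. Its intensities overlapped, at 660 to 760 in RCC4, against 704 to 771 in H1299 and 674 to 843 in HCT116. The lines are single lines of 3 tissues, so tissue and line cannot be told apart.

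**Figure D4:**
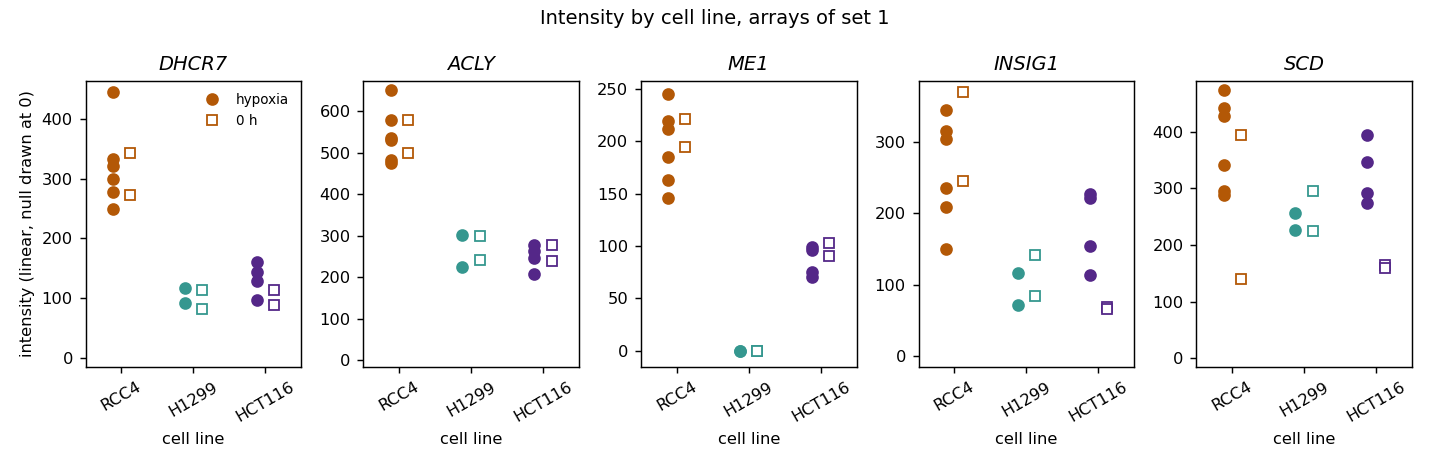
Linear intensity (vertical axis) of 5 genes on the set 1 arrays of RCC4, H1299 and HCT116, with filled circles for hypoxic arrays left of open squares for 0 h arrays, and null drawn at 0. ME1 is null on all 4 H1299 arrays, and INSIG1 in HCT116 is at 69 and 66 at 0 h and at 113 to 227 under hypoxia.

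Over the 30 arrays SCD was most like EBP (Pearson's r = 0.618), FADS2 (0.560), FADS1 (0.469), HMGCS1 (0.461) and NSDHL (0.404) among the tested members. SQLE was most like IDI1 (r = 0.807), FADS1 (0.713), EBP (0.551), NSDHL (0.437) and INSIG1 (0.394). These values describe 30 arrays that share lines, genotypes and array sets and carry no test.

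The remaining 6 members were on the array but too dim to be tested. LSS, the cyclase that makes lanosterol, was listed on all 30 arrays at 6 to 74, and ELOVL6, a fatty acid elongase, on 25 at 1 to 53. ACACA, the acetyl-CoA carboxylase, was listed on 13 arrays at 0 to 83. CYP51A1 and MSMO1, which demethylate sterols with oxygen, were listed on 2 arrays each, at 35 and 60 and at 49 and 88. All 4 of those entries were on VHL-null RCC4 arrays, 2 of them on the array of replicate 2 at 0 h that had the fewest null probe sets. STARD4, a sterol transfer protein, was null throughout.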

How the data were processed

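The files hold the authors' intensity per probe set, 1 column per array, as deposited; per the labels, Affymetrix protocols were used, while the software, summary and scaling are not given in the sources used here. A probe table with GEO's annotation named 17478 probe sets, of which 16905 had 1 symbol and 573 several, and gave 12690 genes. Null was taken as 0, values were analysed as log2(intensity + 16), each array was centred on its median (array medians spanned 0.903), and the upper 60% by mean (7614 genes) were tested. All tests were two-sided fits of limma (version 3.58.1, R 4.3.3), with p-values adjusted by Benjamini-Hochberg across those 7614 genes and a threshold of 0.05. A p-value covers the spread among the arrays fitted, and their number limits precision. The fits were checked on simulated data, drawn around each gene's mean with the same spread for every gene, which is simpler than the real arrays. That spread was smaller than the median residual spread of the real genes, and the draw held no array set or replicate effect. The check therefore does not show how the fits behave on arrays like these. Replicate differences correlated at 0.794 to 0.916 over 6 pairs of RCC4 groups, so the replicate number was also used as a block; the submitters call the replicates independent, and the number equals the array set at 0 h and 18 h. All 34 members are accounted for; in each comparison those that passed, or else the 4 furthest from 0 by limma's statistic, are named. The members and lists were chosen with earlier results of these data known. Alternatives were another pseudocount (64), quantile normalization, no filter, the mean of a gene's probe sets, null as missing, the replicate block, no array set term, and leaving out each replicate. Marker lists for renal, colon, lung, leukocyte, fibroblast, endothelial and lipogenic tissue were summed per array without a test.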

Additional observations from a re-analysis of the deposited data

Results flagged for a closer look

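The change of SCD with 18 h of hypoxia differed between VHL-null and VHL-restored RCC4 cells by -1.08 with the replicate number as a block (SE 0.163, limma adjusted p = 0.00336), which is a test of the difference itself. SCD was at 442 and 556 at 18 h, against 394 and 576 at 0 h, in VHL-null cells, and at 341 and 301, against 140 and 137, in VHL-restored cells. Both replicates gave the sign, at -1.11 and -1.05. Without the block the same difference had a limma adjusted p of 1.00. No labelled group held 4 or more samples, so none was examined for a single array far from the others.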

How the results depend on the processing

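Of 1284 recomputed gene differences for 100 results, 1214 kept their direction and their side of the threshold, 27 lost and 29 gained a call, and 14 changed sign. Most of the 100 results had not passed in the main fits, so the 1214 mostly count genes that again did not pass. Only results that had passed could lose a call: those for genotype over all states, for 4 h reoxygenation, and for INSIG1 in HCT116 at 24 h. With the replicate block, 7 members passed for VHL at 0 h, 9 for VHL at 18 h, 1 for 18 h hypoxia in VHL-restored cells and 1 for the interaction, against 0 each without it. In the 20-array fit the block counts every single array as replicate 1 whichever set it lies in, and 6, 8, 8, 6 and 7 members passed for 1 h, 4 h, 1 h reoxygenation, 4 h reoxygenation and 4 h reoxygenation against 18 h, where 57.5%, 61.7%, 59.4%, 55% and 59.1% of all genes did, while 14 passed for genotype as before. With this block 1 h turned to -0.20 for MVD, -0.23 for MVK and -0.24 for SC5D, 4 h to -0.14 for MVD and -0.23 for MVK, 1 h reoxygenation to -0.25 for SC5D, 4 h reoxygenation to -0.11 for MVD and, against 18 h, to -0.22 for SC5D. Without the array set term they were -0.013 (MVK, 1 h), -0.024 (SC5D, 1 h), -0.019 (MVK, 4 h), -0.042 (SC5D, 1 h reoxygenation) and -0.0084 (SC5D, against 18 h). No member passed at 4 h reoxygenation without that term, where 252 of all 7614 genes did. With the mean of probe sets, 1, 1 and 8 members passed for 1 h, 4 h and 4 h reoxygenation, where 6.4%, 10.8% and 30.1% of all genes did. With quantile normalization 0 members passed for 4 h reoxygenation, where 663 of all 7614 genes did. With no filter, 1 passed for 4 h reoxygenation against 18 h and 0 for HCT116 at 24 h, where a pseudocount of 64 gave 2 and leaving out the 12 h pair also 2. Leaving out 1 replicate gave 0 to 1 members at 1 h, 0 to 2 at 4 h and 0 to 1 at 18 h. It gave 0 to 3 at 4 h reoxygenation and 13 to 15 for genotype. Of all 7614 genes, 76 to 331, 365 to 924, 74 to 293, 280 to 1194 and 2158 to 3303 passed there, in that order. In the same runs IDI1 at 2 h ranged from -0.33 to 0.021, above 0 without the VHL-restored array of replicate 1 at 0 h. The cause of these changes was not tested.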

Other observations

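On set 1 arrays, renal markers summed to 336 to 412 in RCC4, against 151 to 171 in H1299 and 181 to 231 in HCT116, with 3 of 7 on the array. PAX8 alone was at 273 to 366 in RCC4, so this sum mostly repeats that gene, and 1 of the 3 lay above the array median there. Colon markers (8 of 8) summed to 485 to 599 on HCT116 arrays, against 519 to 575 for RCC4 and 477 to 548 for H1299. Lung markers (5 of 6) summed to 990 to 1050 on H1299 arrays, against 998 to 1100 for RCC4 and 1033 to 1107 for HCT116. Leukocyte markers (4 of 6) summed to 685 to 746, 669 to 731 and 668 to 722 for RCC4, H1299 and HCT116, fibroblast markers (6 of 6) to 637 to 734, 547 to 589 and 689 to 732, and endothelial markers (5 of 5) to 855 to 974, 879 to 930 and 893 to 1006. Markers of lipogenic tissue (4 of 6) summed to 363 to 424, 379 to 446 and 373 to 499. Of these, ALB, the serum albumin gene of hepatocytes, was null on all 30 arrays, PLIN1 on 29 and LEP on 15. ADIPOQ, an adipocyte marker of the same list, was null on 0 arrays, with a mean log2 level of 8.65. Their part in the results was not tested.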
